A study of Mus musculus with 8 samples.

Results

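The comparison of early double-positive thymocytes with and without Hdac3 covered every gene that reached at least 1 FPKM (a read level set relative to transcript length and depth) in either genotype, 11650 of the 23278 listed genes. Of these, 10509 were tested by the authors and 1141 were not. The study sequenced sorted mouse thymocytes in 4 groups of 2 libraries, 8 in all, to ask which genes change in double-positive cells when Hdac3 is deleted. The cells are called DP1 and were GFP+CD4+CD8+ with low surface CD5 and low TCRβ. WT DP1 came from C57BL/6 mice labelled Hdac3+/+, and Hdac3KO DP1 from C57BL/6 mice labelled Hdac3F/F LCK-Cre+. A later population, DP2 (high CD5, intermediate TCRβ), was sorted from the same genotypes and is used here only for contrast. The labels give no age, do not say what GFP marks in either genotype, and do not make clear whether the WT mice carried Cre. Libraries were made from pools of rRNA-depleted total RNA, and each deposited value is 1 FPKM for a gene and a group of 2 pooled-RNA libraries, so the spread between libraries cannot be shown. The threshold left 189 genes between 1 and 1.1 FPKM in their higher group just inside and 205 between 0.9 and 1 FPKM just outside.

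Hdac3 is a histone deacetylase that becomes active in the NCoR and SMRT corepressor complexes, which transcription factors such as nuclear receptors and Bcl6 bring to their target genes. Double-positive thymocytes rearrange their TCRα genes and await a selecting signal, and those with little CD5 have had little such signal. Cre under the control of LCK, a kinase gene of the T lineage, is active in T lineage cells and, as a rule, before the double-positive stage. The sorted cells therefore do not show at which stage a difference arose.

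Hdac3 itself stood at 38.1 FPKM in WT DP1 and at 11.7 FPKM in Hdac3KO DP1, 30.7% of the WT value. With the length trend described below removed its log2 ratio was -1.62 ± 0.42 (SE, adjusted p = 0.00318 on the authors' error), and in DP2 it was at 29.7 and 15.4 FPKM. The RNA is read over the whole gene, so the remaining signal does not separate undeleted cells from transcripts of the deleted allele. All 13 markers of double-positive thymocytes were present in both genotypes, with a summed level of 6998 FPKM in WT cells and 8721 in Hdac3KO. None of the 6 listed γδ T and NK cell markers reached 1 FPKM (sums of 1.18 and 2.17 FPKM). Double-negative thymocyte markers summed to 57.7 and 33.7 FPKM, with Hhex at 47.8 and 8.53 and Il2ra, called higher, at 3.49 and 19.6. Markers of mature single-positive cells summed to 170 and 100.07. B cell markers summed to 0.888 and 1.88 FPKM. Myeloid markers summed to 73.0 and 39.2 FPKM, of which Cst3 gave 67.8 and 27.6, while Itgax, Csf1r and Lyz2 were under 1 FPKM in both. Against that sum, the myeloid marker Itgam was called higher (2.40 and 9.58 FPKM). The part of other cells in the results was not tested. In RNA from a bulk sort, fewer cells of a kind and less RNA per cell cannot be told apart. The genotypes also differed in sex: the X-inactivation RNA Xist was at 0.0945 FPKM in WT cells and 208 in Hdac3KO, and the Y-linked Kdm5d at 20.01 and 0.264. A difference that sex makes and a difference that Hdac3 makes cannot be told apart from this table alone. The ribosomal RNA precursor Rn45s was listed at 0 in WT DP1, with a status that marks too much data to test, and at 5306 FPKM in Hdac3KO DP1.

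At a q of 0.05 the authors' deposited table called 1120 genes higher in Hdac3KO DP1 and 1358 lower, 10.7% and 12.9% of those tested. Centred on the median gene, the split was 1431 and 947. The ratios followed transcript length, and the comparison was therefore made again with that trend removed. Genes with a longest transcript under 1000 nt had a median log2 ratio of -0.58 (701 genes), those of 3000 to 4000 nt -0.12 (2030 genes) and those of at least 8000 nt 0.47 (520 genes). In the DP2 table the same classes had medians between 0.08 and 0.15, with no such order. Across the 5668 genes with at least 10 FPKM in both genotypes, Pearson's r of the log2 ratio with log10 length was 0.38, a description across genes that are not independent replicates. What causes this trend was not tested.

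**Figure D1:**
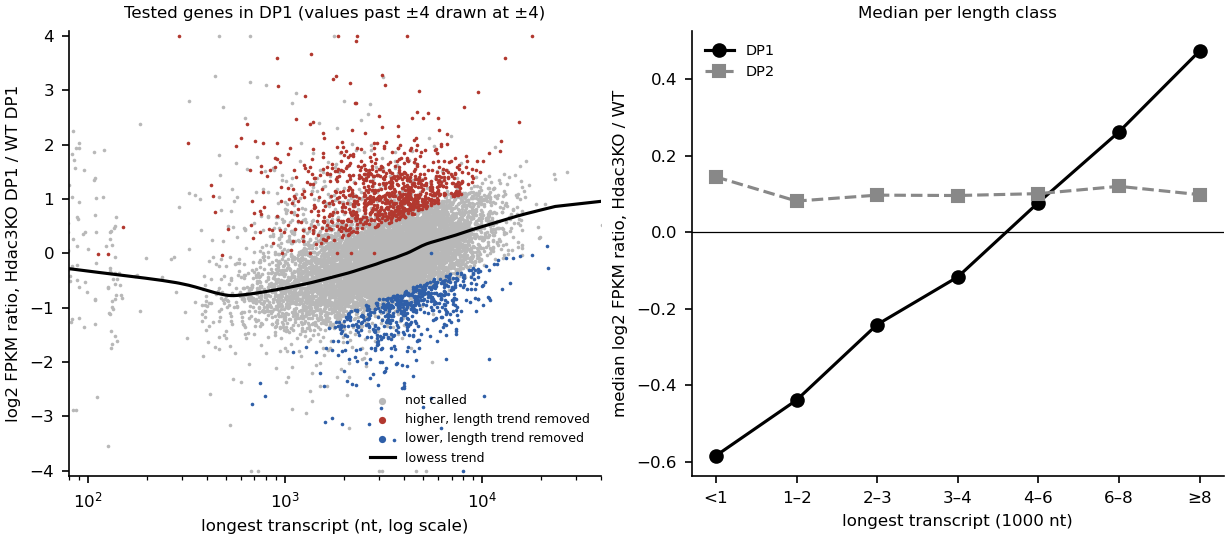
Left, log2 FPKM ratio of Hdac3KO DP1 over WT DP1 for each tested gene against the length of its longest transcript (log axis), with the lowess trend as a line and genes called after its removal in colour, and values past ±4 drawn at ±4. Right, median log2 ratio per length class in DP1 and DP2: the DP1 medians climb from -0.58 in the shortest class to 0.47 in the longest, and the DP2 medians stay between 0.08 and 0.15.

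With the length trend removed, 920 of 10282 genes with a transcript length and an SE were higher and 585 lower, 8.95% and 5.69%. This call used a normal test of the length-adjusted log2 ratio against the standard error worked back from the authors' p, with Benjamini-Hochberg adjustment, and the adjusted p values below come from it. Both ways of calling gave 708 of the same genes higher and 463 lower, and no gene was called in opposite directions. Another 412 higher and 895 lower genes were called only by the deposited q, and 212 and 122 only after removal of the trend. Under 1000 nt, 0.428% of genes were lower after removal and 24.7% by the deposited q. A smaller trend with GC content was left: 16.7% of the 617 genes with transcripts under 40% GC were higher and 4.54% lower. The authors' p has a floor of 5e-05, so the SE of the 598 called genes at that floor is an upper bound.

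Besides Xist, the named genes with the largest length-adjusted rises were H2-T3, Tmprss4, Cd302, Il18r1, Gimap4, Cd53, Gimap3, Gimap7, Spsb1, Ankrd55 and Ifi204. H2-T3, a gene of the nonclassical MHC class I group, was at 1.003 FPKM in WT cells and 19.7 in Hdac3KO DP1 (length-adjusted log2 ratio 4.61 ± 1.06, adjusted p = 0.000873 on the authors' error). In DP2, measured in other libraries, it was at 0.787 and 13.1 FPKM. Tmprss4, whose product is a serine protease anchored in the membrane, was at 0.547 and 8.19 FPKM in DP1 (4.22 ± 0.96) and at 0.459 and 11.6 in DP2. For both genes both WT groups lay far below both Hdac3KO groups. Il18r1, a chain of the interleukin-18 receptor, was at 0.308 and 5.11 FPKM (4.05 ± 1.33), and at 0.744 and 12.5 in DP2. Spsb1, an adaptor of ubiquitin ligases, was at 2.67 and 25.9 FPKM (3.44 ± 0.81), and Ankrd55 at 1.13 and 9.65 (3.24 ± 0.76). With the trend removed the kinesin and tubulin list had 3 higher and 2 lower of 35 (8.57% and 5.71%), near the shares of all tested genes. The deposited q gave 2 higher and 6 lower in that list. Tuba8, an α-tubulin gene from it, was at 3.498 and 23.7 FPKM (3.09 ± 0.68). Each of these 6 genes was called higher in DP2 as well. Reads shared among close relatives of H2-T3, of the interferon-inducible genes named below and of the tubulin genes may be divided among them, and how the counting did so is not given in the sources used here.

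All 8 Gimap genes were higher with the length trend removed, and 5 of them by the deposited q. Gimap proteins are GTPases of lymphocytes linked to T cell survival. The steepest changes were in Gimap4, at 0.972 FPKM in WT cells and 9.38 in Hdac3KO (3.696 ± 0.81), in Gimap3, at 0.625 and 5.52 (3.49 ± 0.84), and in Gimap7, at 10.96 and 81.8 (3.46 ± 0.72). Gimap8 was at 28.1 and 110 FPKM (2.12 ± 0.49). Gimap6, the most abundant with Gimap9, was at 180 and 315 FPKM (0.95 ± 0.26), and Gimap9 at 177 and 239 (0.97 ± 0.25). Gimap5 (6.02 and 9.44 FPKM) and Gimap1 (61.0 and 72.3 FPKM) passed only after the trend was removed (adjusted p = 0.0189 and 0.0329 on the authors' error), as did Gimap9. The family thus ranged from a length-adjusted log2 ratio of 0.71 for Gimap1 to 3.696 for Gimap4, and the genes lowest in WT, Gimap3 and Gimap4, were at the upper end. In DP2 the genes Gimap1, Gimap3, Gimap4 and Gimap7 were also called higher, while Gimap5 (adjusted p = 0.886 on the authors' error), Gimap6 (0.109), Gimap8 (0.0796) and Gimap9 (0.0589) were not. Gimap3 and Gimap5 are near relatives, and their reads may be shared.

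The promoters of these genes are shown because calls in DP1 differed with promoter CG content. Each is 300 bases from RefSeq on GRCm38.p6, the assembly of mm10, from 250 bases before to 50 after the annotated start, written 5′ to 3′ on the gene's strand, with every CG dinucleotide in capitals. The H2-T3 promoter, chr17:36190102-36190401 (minus strand), holds 2 CG dinucleotides, that of Cd53, chr3:106790100-106790399 (minus strand), 4, that of Gimap4, chr6:48684328-48684627 (plus strand), 4, and that of Gimap7, chr6:48718371-48718670 (plus strand), 2. Spsb1, chr4:149954957-149955256 (minus strand), which also rose, has 28, and Hhex, chr19:37434591-37434890 (plus strand), a homeobox gene that fell, has 37. The promoter of Kcnk2, a gene that fell too, has 3 and is not printed here.
H2-T3: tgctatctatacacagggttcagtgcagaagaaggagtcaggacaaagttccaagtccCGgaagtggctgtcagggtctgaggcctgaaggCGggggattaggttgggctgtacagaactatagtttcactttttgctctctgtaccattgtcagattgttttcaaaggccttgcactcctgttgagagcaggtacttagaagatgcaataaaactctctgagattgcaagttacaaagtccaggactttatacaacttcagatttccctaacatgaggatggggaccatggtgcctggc
Cd53: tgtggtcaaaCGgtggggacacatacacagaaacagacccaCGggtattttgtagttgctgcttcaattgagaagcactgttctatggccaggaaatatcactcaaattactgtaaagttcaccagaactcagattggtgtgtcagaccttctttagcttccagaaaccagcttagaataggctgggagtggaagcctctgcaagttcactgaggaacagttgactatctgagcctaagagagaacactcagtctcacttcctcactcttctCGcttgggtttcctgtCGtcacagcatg
Gimap4: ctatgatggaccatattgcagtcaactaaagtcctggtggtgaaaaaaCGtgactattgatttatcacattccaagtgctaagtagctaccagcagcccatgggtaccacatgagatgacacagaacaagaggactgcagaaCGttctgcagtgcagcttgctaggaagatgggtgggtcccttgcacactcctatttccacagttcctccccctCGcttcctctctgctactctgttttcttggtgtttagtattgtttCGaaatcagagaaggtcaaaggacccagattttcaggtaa
Gimap7: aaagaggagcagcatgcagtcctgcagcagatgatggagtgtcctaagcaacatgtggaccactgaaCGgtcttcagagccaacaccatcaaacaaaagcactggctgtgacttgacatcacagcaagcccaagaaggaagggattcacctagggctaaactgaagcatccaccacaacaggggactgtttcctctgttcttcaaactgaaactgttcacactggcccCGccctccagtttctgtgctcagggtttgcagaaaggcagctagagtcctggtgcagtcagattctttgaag
Spsb1: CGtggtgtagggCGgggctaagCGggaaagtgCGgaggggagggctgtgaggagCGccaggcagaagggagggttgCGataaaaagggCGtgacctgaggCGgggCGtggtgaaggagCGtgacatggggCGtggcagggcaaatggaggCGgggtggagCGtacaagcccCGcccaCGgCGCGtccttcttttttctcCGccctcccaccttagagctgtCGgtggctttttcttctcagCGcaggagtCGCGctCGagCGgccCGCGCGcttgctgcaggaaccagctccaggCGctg
Hhex: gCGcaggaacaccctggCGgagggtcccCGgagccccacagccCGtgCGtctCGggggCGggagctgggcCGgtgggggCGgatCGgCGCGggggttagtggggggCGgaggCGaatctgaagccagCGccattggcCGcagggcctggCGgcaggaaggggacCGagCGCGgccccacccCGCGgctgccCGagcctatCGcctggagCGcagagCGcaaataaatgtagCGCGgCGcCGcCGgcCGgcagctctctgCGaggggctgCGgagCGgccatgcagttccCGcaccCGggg

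Promoters were matched for 7488 of 9238 tested genes with a full name (81.1%), and their median CG count was 22. Of the 423 genes with fewer than 5 CG dinucleotides, 22.7% were higher and 3.55% lower in Hdac3KO DP1 with the length trend removed, and their median length-adjusted log2 ratio was 0.40. With 5 to 9 CG dinucleotides (583 genes) the shares were 13.9% and 4.97%. With 10 to 19 (2094 genes) they were 6.45% and 6.97%, and with 30 or more (1826 genes) 7.67% and 5.42%. Higher genes were thus most frequent in the CG-poor classes. The share was similar with the trend on transcript GC content removed too (23.6% higher in the poorest class). CG-poor genes also had lower levels, with a median of 9.62 FPKM in their higher group against 21.05 in the richest class. Among genes with at least 10 FPKM in both genotypes, 18.2% of 176 genes in the poorest class were higher and 2.84% lower. In DP2 the poorest class had 9.20% higher and 8.96% lower, so its calls there went both ways. The median longest transcript was 2871 nt in the poorest and 4026 nt in the richest class. These shares are descriptions, and no test was run on them. All 8 Gimap promoters had fewer than 10 CG dinucleotides.

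**Figure D2:**
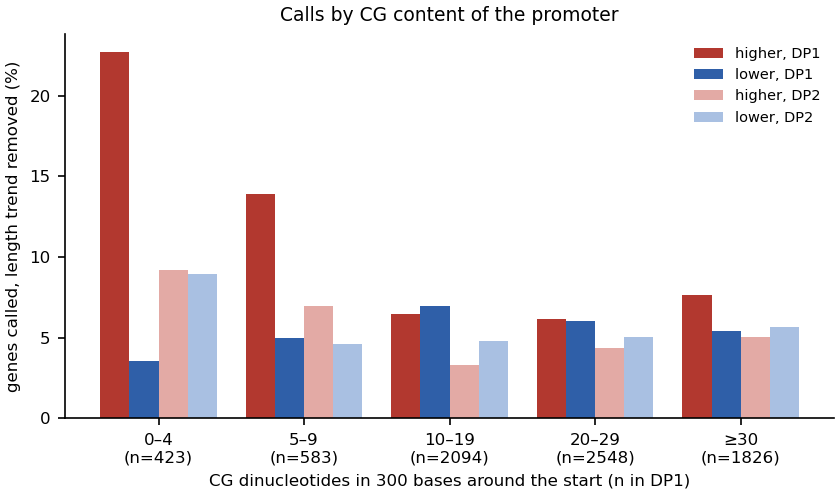
Share of genes called higher or lower with the length trend removed, in DP1 and DP2, by the number of CG dinucleotides in the 300-base promoter. In DP1 the share of higher genes is 22.7% in the poorest class and 7.67% in the richest, while in DP2 the poorest class has 9.20% higher and 8.96% lower.

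The other large rises were in Cd53, Cd302 and Ifi204. The list counts that follow stand beside 8.95% higher and 5.69% lower over all tested genes with the trend removed. Tetraspanins, the list of Cd53, gave 3 higher and 0 lower of 15 with the trend removed (2 and 2 by the deposited q). Their median length-adjusted log2 ratio was -0.0064. Mature and effector lymphocyte receptors, the list of Cd302, gave 3 higher and 1 lower of 14 with the trend removed (median 0.42). That list gave 1 higher and 6 lower by the deposited q, so its balance depended on the length trend. Cd53, a tetraspanin of leukocytes, was at 2.77 FPKM in WT DP1 and 25.5 in Hdac3KO DP1 (3.64 ± 0.79, adjusted p = 0.00045 on the authors' error), but at 130 in WT DP2 and 92.6 in Hdac3KO DP2. Cd302, a C-type lectin receptor, was at 0.597 and 7.59 FPKM in DP1 (4.21 ± 1.06) and at 4.71 and 4.03 in DP2. Ifi204, an interferon-inducible gene, was at 0.782 and 5.34 FPKM (3.09 ± 1.06). Its neighbours Mndal (22.2 and 37.4 FPKM) and Ifi203 (4.51 and 17.4 FPKM) rose too. The fixed limits for an on or off gene were under 1 FPKM in 1 genotype and at least 5 in the other. A call by the deposited q was also required, and uncalled genes within the FPKM limits were not counted. By this rule 12 entries were low in WT and on in Hdac3KO DP1, and 2 the reverse. The 8 of these 12 with full names were Xist, Tmprss4, Cd302, Il18r1, Gimap3, Gimap4, Ifi204 and D8Ertd82e, and the 2 in the other direction were Kdm5d and Kcnk2. H2-T3, at 1.003 FPKM in WT, lay just outside.

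The 12 named genes with the largest falls had varied functions. Kcnk2, a background potassium channel gene, was at 9.62 FPKM in WT cells and 0.887 in Hdac3KO DP1 (-3.35 ± 0.85, adjusted p = 0.00242 on the authors' error). Kcnj14, an inward rectifier channel gene, was at 9.51 and 1.07 FPKM (-2.91 ± 0.78). In DP2 these genes were at 19.3 and 2.62 and at 23.9 and 1.57 FPKM, so both channels were low in Hdac3KO at both points. Rab6b, a GTPase of Golgi transport, was at 8.53 and 1.20 FPKM (-2.98 ± 0.70), and Svip, a regulator of protein degradation at the endoplasmic reticulum, at 24.6 and 3.41 (-2.68 ± 0.70). Hhex, a homeobox repressor of early lymphoid cells, was at 47.8 and 8.53 FPKM (-2.45 ± 0.61), and at 221 and 21.3 in DP2. Lif, the gene of leukemia inhibitory factor, was at 6.18 and 1.13 FPKM (-2.43 ± 0.60), and Adrbk2, a G protein-coupled receptor kinase gene, at 12.5 and 3.27 (-2.22 ± 0.48). Myzap (16.7 and 2.62 FPKM), Nwd1 (19.8 and 5.13), Arsi, an arylsulfatase gene (46.3 and 8.58), and Cxxc5, a CXXC zinc finger gene (12.9 and 2.40), completed the 12 with the Y-linked Kdm5d. All 12 were also called lower in DP2, where the length-adjusted log2 ratio nearest 0 was -1.53 for Myzap. The difference between DP1 and DP2 passed for none of the 12, which does not show that they were equal.

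**Figure D3:**
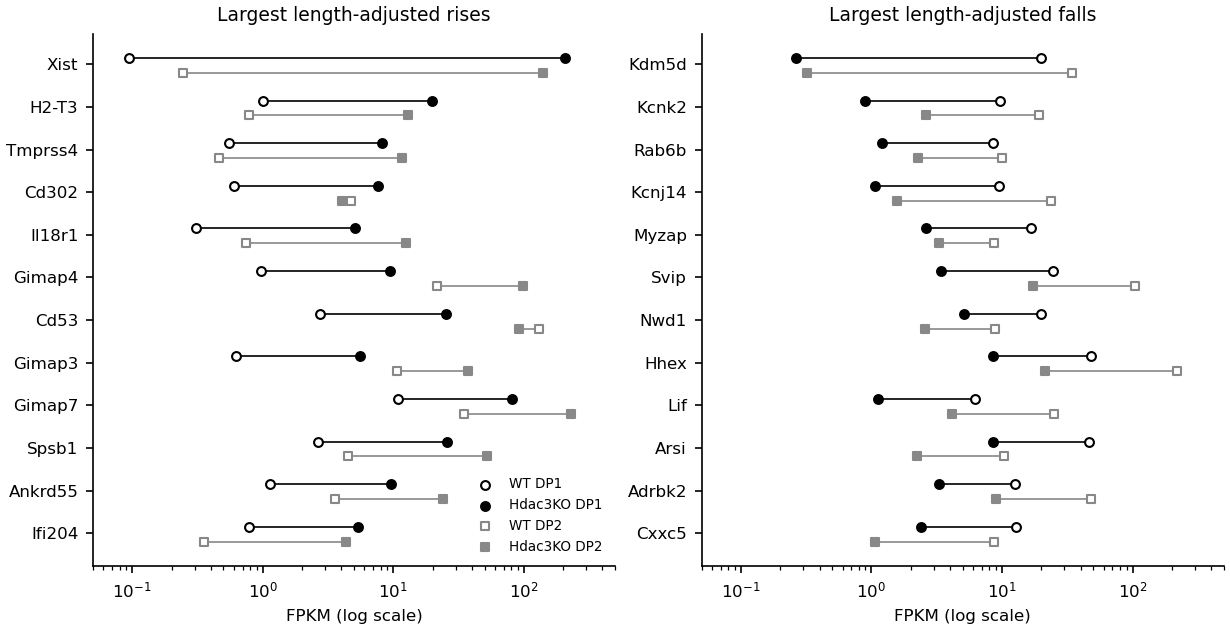
FPKM (log axis) in WT and Hdac3KO, DP1 and DP2, for the 12 named genes with the largest length-adjusted log2 ratio in each direction; each symbol is the authors' single value for a group, and levels in DP1 and DP2 come from separately normalized tables. Cd302 and Cd53 rise in DP1 and lie slightly lower in Hdac3KO in DP2, while all 12 genes on the right are lower in Hdac3KO in both.

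Among abundant genes, those with at least 200 FPKM in the higher genotype, changes were smaller. Themis, which tunes TCR signals in selection, was at 283 FPKM in WT cells and 862 in Hdac3KO (1.45 ± 0.40). Rbm39, a splicing factor gene, was at 190 and 428 FPKM (1.39 ± 0.29), and Clk1, a kinase of splicing factors, at 159 and 440 (1.34 ± 0.36). Haus3, a subunit gene of the augmin complex of the spindle, was at 153 and 350 FPKM (1.28 ± 0.29), and Fyb, an adaptor of TCR signalling, at 98.5 and 200.02 (1.26 ± 0.27). Obfc2a (86.1 and 227 FPKM) and D4Wsu53e (229 and 469 FPKM) also rose. The abundant genes that fell and kept their call with the longest RefSeq transcript as length were the linker histone genes Hist1h1d, at 740 and 335 FPKM (-1.48 ± 0.28), and Hist1h1e, at 694 and 252 (-1.06 ± 0.36). Rpsa, a ribosomal protein gene, at 1212 and 450 (-1.03 ± 0.35), Anxa2, at 301 and 112 (-1.1003 ± 0.35), and the chaperone gene Dnajc15, at 443 and 248 (-1.09 ± 0.26), kept theirs as well. Atp5l (226 and 88.4 FPKM), Sod1 (315 and 143) and Gnb2l1 (554 and 271) lost theirs, since the longest annotated transcript of each is far longer than its RefSeq transcript (adjusted p = 0.241, 0.349 and 0.121 on the authors' error).

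Several lists of receptor and signalling genes gave more higher than lower calls. So did all tested genes, with 8.95% higher and 5.69% lower after removal of the trend. Beside that 8.95%, the higher share was 20% for cytokine receptors, 29.2% for the TNF superfamily and 25.6% for proximal TCR genes. For JAK, STAT and SOCS genes it was 8.70%, and 4.35% were lower. Of 25 cytokine receptor genes 5 were higher and 0 lower, by both ways of calling, among them Il2ra, the α chain of the interleukin-2 receptor (3.49 and 19.6 FPKM, 2.44 ± 0.61), and Il10ra (5.53 and 12.1 FPKM, 1.23 ± 0.29). Their median length-adjusted log2 ratio was 0.20, beside 0.0043 over all tested genes. Of 24 genes of the TNF and TNF receptor superfamily, 7 were higher and 0 lower with the trend removed (5 and 0 by the deposited q), with a median of 0.50. Lta (0.612 and 2.32 FPKM), Tnf (1.55 and 4.36) and the death receptor gene Tnfrsf10b (2.07 and 7.96) led them. Of 43 genes of the proximal TCR pathway and coreceptors, 11 were higher and 0 lower (12 and 1 by the deposited q), with a median of 0.37. Txk, a TEC family kinase, was at 25.6 and 73.8 FPKM (1.35 ± 0.38), and Pag1, a membrane adaptor that recruits the inhibitory kinase Csk, at 26.9 and 80.8 (1.19 ± 0.39). Among JAK, STAT and SOCS genes Stat4 (14.9 and 35.9 FPKM) and Socs3 (5.98 and 10.3 FPKM) rose, and 1 of 23 was lower (Ptpn11, with the trend removed). Inpp4b, a phosphatase of phosphoinositides, was at 6.05 and 39.1 FPKM (2.31 ± 0.66), yet its list of 32 genes had 1 called in each direction.

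Adhesion and guidance genes differed by family, beside 8.95% higher and 5.69% lower over all tested genes with the trend removed. Of 11 semaphorin, plexin and guidance receptor genes, 4 were lower and 0 higher by both ways of calling. Nrp1, a semaphorin and VEGF receptor, was at 17.6 and 4.25 FPKM (-1.97 ± 0.50), Sema7a at 19.1 and 8.17 (-1.096 ± 0.30) and Plxnb1 at 1.88 and 1.01 (-1.32 ± 0.31). Integrins and adhesion genes gave 4 higher and 1 lower of 19: Itgam, the CD11b chain, was at 2.40 and 9.58 FPKM (1.90 ± 0.49), whereas the laminin-binding chain Itga7 was at 2.1003 and 0.401 (-2.37 ± 0.59). In the SLAM family, Cd84 rose (63.3 and 124 FPKM) and Slamf6 fell (57.7 and 30.3 FPKM). Chemokine receptor genes Ccr7 (1.31 and 5.07 FPKM) and Ccr4 (4.17 and 8.11 FPKM) rose, while Rgs12, a brake on G protein signals, fell from 11.98 to 6.87 FPKM. The ion channel list gave 4 higher and 3 lower of 31 (12.9% and 9.68%). Of its higher genes, Trat1 encodes a TCR adaptor and not a channel. Kcna3, the main voltage-gated potassium channel of T cells, was at 23.1 and 50.3 FPKM (1.53 ± 0.28). MHC class I and peptide loading genes gave 4 higher and 1 lower of 23 with the trend removed, against 4 and 5 of 24 by the deposited q, so the balance of that list depended on the length trend. Its lower gene by both was H2-Q1 (8.48 and 3.20 FPKM), and H2-T10 (18.1 and 41.6 FPKM) rose.

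Lists of growth and division genes gave mostly lower calls, also with the length trend removed. Over all tested genes 5.69% were then lower. The lower share was 41.2% for nucleotide and folate synthesis, 30.8% for replication and 22.8% for kinetochore and spindle genes. For the cyclin and DNA repair lists it was 13.2% and 12.5%. Nucleotide and folate synthesis had 14 of 34 genes lower and 0 higher (20 and 0 by the deposited q), with a median length-adjusted log2 ratio of -0.61. Cad, which starts pyrimidine synthesis, was at 8.05 FPKM in WT cells and 3.84 in Hdac3KO (-1.39 ± 0.26), Shmt1, a folate enzyme, at 14.6 and 5.33 (-1.25 ± 0.36), and Adk, adenosine kinase, at 14.2 and 5.005 (-1.52 ± 0.37). Replication licensing and fork genes had 16 of 52 lower and 0 higher (29 and 0 by the deposited q), with a median of -0.59. Pole, the catalytic subunit of a replicative polymerase, was at 24.8 and 14.0 FPKM (-1.15 ± 0.26), and Mcm10 at 33.3 and 16.4 (-1.14 ± 0.25). Kinetochore and spindle genes had 13 of 57 lower and 0 higher (23 and 0), with a median of -0.43, among them Nuf2 (74.7 and 32.9 FPKM) and Mad2l1, a spindle checkpoint gene (84.9 and 36.5 FPKM). The cyclin-dependent kinase gene Cdk1 was at 50.3 and 24.6 FPKM (-1.07 ± 0.25). Cyclins, CDKs and E2F genes as a list went both ways (5 higher and 7 lower of 53), with Ccnl1, a cyclin linked to splicing, up at 39.0 and 129 FPKM. Of 56 DNA repair genes 7 were lower and 2 higher. Exo1, an exonuclease gene of mismatch repair, fell (12.9 and 6.20 FPKM). Spo11, the meiotic recombinase gene that double-positive cells transcribe, was at 18.6 and 57.1 FPKM (1.70 ± 0.40), and Polm, a polymerase of end joining, at 3.46 and 6.40 (1.08 ± 0.31).

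Protein folding, ribosome production and nuclear transport genes also gave mostly lower calls. With the trend removed 16.7%, 20% and 18.75% of them were lower, beside 5.69% of all tested genes. Chaperone and folding genes had 7 of 42 lower and 0 higher (21 and 0 by the deposited q), led by Hsph1, a heat shock protein of the Hsp110 family, at 73.6 and 22.1 FPKM (-1.85 ± 0.43). Cct3, a chaperonin subunit, was at 125 and 52.3 FPKM (-1.14 ± 0.31). Ribosome biogenesis and Myc genes had 8 of 40 lower and 1 higher (9 and 0 by the deposited q), with a median of -0.42. Of these, 4 were lower by both ways of calling. Myc was at 5.70 and 2.08 FPKM (-1.14 ± 0.36) and Mybbp1a, a nucleolar protein gene, at 31.5 and 15.1 (-1.11 ± 0.26). Nuclear pore and transport genes had 6 of 32 lower and 1 higher (8 and 2 by the deposited q), and 4 were lower by both. Nup205 was at 36.3 and 19.0 FPKM (-1.20 ± 0.25) and Nup210 at 36.5 and 20.001 (-1.18 ± 0.24). Among nutrient transporters 4 of 24 were lower and 0 higher with the trend removed (4 and 2 by the deposited q). Lower were the cystine transporter Slc7a11 (13.4 and 7.62 FPKM) and the cationic amino acid transporter Slc7a1 (7.26 and 4.34). The monocarboxylate transporter Slc16a1 (88.1 and 44.3) and the nucleoside transporter Slc29a1 were the others. In lipid metabolism 5 of 37 were lower and 1 higher with the trend removed (3 and 4 by the deposited q). The lower genes included the fatty acid oxidation genes Cpt2 (7.14 and 2.51 FPKM) and Acadl (69.5 and 27.3 FPKM). The higher gene was the fatty acid elongase Elovl6 (1.30 and 4.21 FPKM). Autophagy and lysosome genes had 0 of 40 called in either direction with the trend removed (1 lower by the deposited q).

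Lists of short housekeeping transcripts lost most of their calls with length. Over all tested genes the lower share went from 12.9% to 5.69%, and the higher share from 10.7% to 8.95%. Cytosolic ribosomal protein genes, with a median longest transcript of 1076.5 nt, had 65 of 82 lower by the deposited q and 7 with the trend removed, and their median log2 ratio went from -0.82 to -0.23. Oxidative phosphorylation genes went from 47 to 8 of 86 lower, proteasome subunits from 28 to 2 of 47, mitochondrial ribosomal proteins from 26 to 7 of 76. With RefSeq lengths 4 cytosolic ribosomal protein and 5 oxidative phosphorylation genes were lower. Replication-dependent histones went from 51 of 60 lower to 4 of 58, with medians of -1.11 and -0.47, and their near-identical copies may share reads. The same correction removed rises among long transcripts. Lysine methyltransferase genes, with a median of 6041.5 nt, went from 10 of 29 higher to 1 of 28. The listed lysine demethylases went from 5 of 19 to 0. That list leaves out the X-linked demethylase gene Kdm6a, given below, which was higher with the trend removed. The sole methyltransferase gene higher by both was Mll5, at 15.4 and 51.8 FPKM (1.42 ± 0.43). The median of the lysine methyltransferases went from 0.08 to -0.02 and that of the demethylases from 0.29 to 0.18. For all of these lists, changes of the genes and the trend shared by transcripts of their length cannot be told apart.

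**Figure D4:**
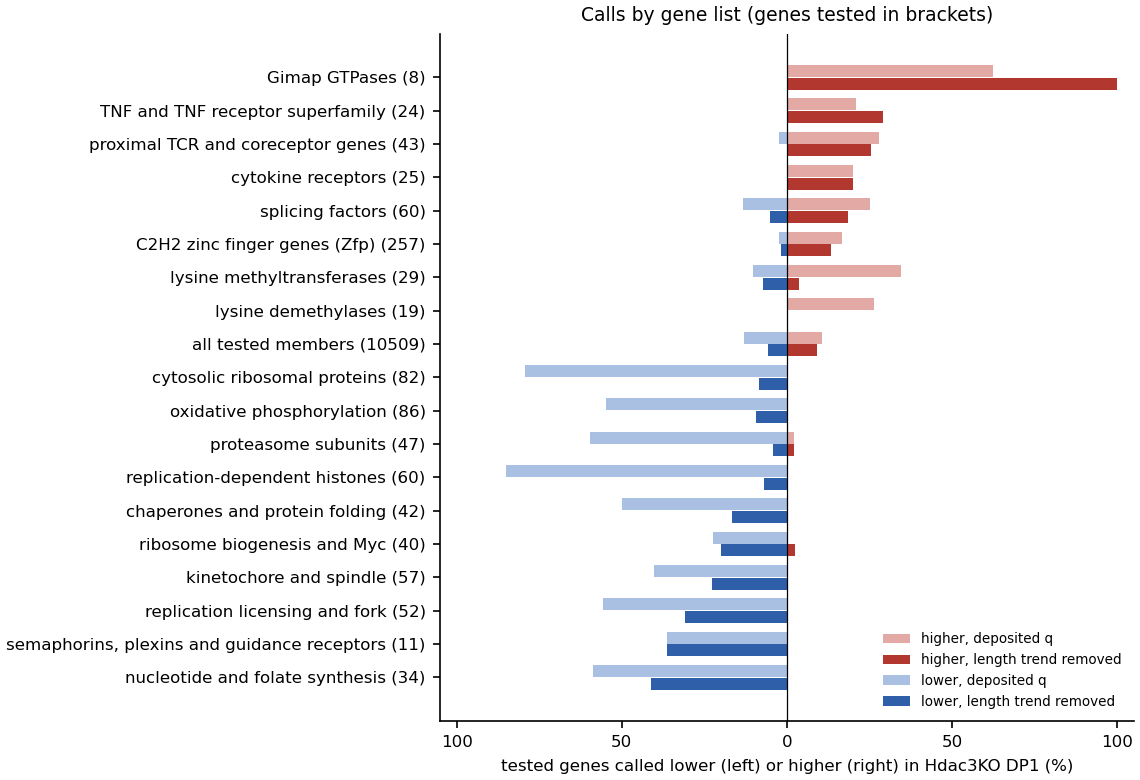
Share of tested genes called lower (left) or higher (right) in Hdac3KO DP1 by the deposited q (pale) and with the length trend removed (dark), for gene lists and for all tested genes. Ribosomal protein, oxidative phosphorylation, proteasome and histone genes lose most of their lower calls, while nucleotide synthesis, replication and guidance genes keep more of theirs.

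Splicing factors and zinc finger genes gave more higher than lower calls by both counts. Of 60 splicing factor genes 11 were higher and 3 lower (15 and 8 by the deposited q). Prpf38b was at 42.0 and 111 FPKM (1.45 ± 0.35) and Prpf19, a core spliceosome ligase, at 16.9 and 8.94 (-1.16 ± 0.26). Of 257 C2H2 zinc finger genes of the Zfp series 34 were higher and 5 lower (43 and 6 by the deposited q), 13.2% and 1.95%, beside 8.95% and 5.69% over all tested genes. Zfp345 was at 52.3 and 171 FPKM (1.94 ± 0.42), and Zfp248, in contrast, at 64.0 and 15.8 (-1.95 ± 0.50) and at 249 and 17.6 in DP2. Zinc finger genes have many close relatives, so some of these counts may be shared. Translation factors gave 3 higher and 1 lower of 46 with the trend removed but 5 and 15 by the deposited q. Eif4a2 (104 and 199 FPKM) and Eif5 (24.8 and 53.1 FPKM) rose, and Eif2s1, a subunit of the initiation factor that stress kinases target, fell from 103 to 52.8 FPKM.

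In lists of Hdac3's own complexes and of other chromatin regulators, a minority of genes was called with the trend removed. The counts below stand beside 8.95% of all tested genes higher and 5.69% lower with the trend removed. Among 12 genes of the Hdac3 corepressor complexes, Bcl6, a repressor that recruits them (40.4 and 111 FPKM, 1.49 ± 0.36), and Tbl1xr1, a subunit (28.9 and 100.3 FPKM, 1.40 ± 0.44), were higher, and Hdac3 was lower. By the deposited q 33.3% of the 12 were higher and 8.33% lower, beside 10.7% and 12.9% of all tested genes. Their length-adjusted log2 ratios were positive for 9 and negative for 3, with a median of 0.26. In DP2, 5 of the 12 were called higher and 1 lower with the trend removed. Of 30 other deacetylases and their partners 3 were higher and 4 lower, with Arid4b, of the Sin3 complex, at 11.6 and 43.9 FPKM (1.69 ± 0.47) and the cytoplasmic deacetylase Hdac6 at 4.76 and 2.51 (-1.08 ± 0.31). The methyl-CG-binding gene Mbd2 was at 57.6 and 98.6 FPKM (1.17 ± 0.25). On the acetylation side Epc2 (8.52 and 22.1 FPKM) and Brd1 (33.8 and 67.5 FPKM) rose, and none of 24 genes fell. Polycomb genes gave 1 higher and 3 lower of 27 with the trend removed (4 and 3 by the deposited q). Of the lower genes, Phf19 was at 7.64 and 3.00 FPKM (-1.29 ± 0.33). In the cohesin and condensin list 4 of 24 were higher and 1 lower: the cohesin regulators Esco1 (17.6 and 45.4 FPKM), Nipbl (51.5 and 168 FPKM) and Wapal (36.3 and 102 FPKM) rose. The BAF subunit gene Bcl7c fell from 20.9 to 9.34 FPKM (-1.42 ± 0.31).

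Of 35 T lineage transcription factor genes, 4 were higher and 3 lower by the deposited q. With the trend removed 5.71% were higher and 8.57% lower, beside 8.95% and 5.69% of all tested genes. The higher genes were Elf1 (49.0 and 106 FPKM, 1.096 ± 0.27) and Foxp1 (19.0 and 39.7 FPKM, 0.73 ± 0.26), and the lower genes Hhex, Ikzf2, which encodes Helios (17.5 and 8.40 FPKM, -1.51 ± 0.26), and Id3, an inhibitor of E proteins (29.9 and 9.04 FPKM, -1.16 ± 0.43). These 3 lower genes were lower in DP2 as well. Notch pathway genes gave 2 higher and 1 lower of 22 (9.09% and 4.55%), near the shares of all tested genes. Rbpj, the DNA-binding partner of Notch, was at 16.0 and 30.2 FPKM (0.71 ± 0.25). Several nuclear receptors act through the NCoR and SMRT complexes. Their list gave 2 higher and 0 lower of 18, 11.1% higher beside 8.95% of all tested genes. The 2 were Rarb (1.92 and 9.57 FPKM, 2.48 ± 0.57) and Thrb (0.949 and 3.85 FPKM, 1.76 ± 0.50). Both belong to receptor families with members that bind those corepressors when unliganded. The genes are neighbours on chromosome 14, in a run with Top2b that was all higher by the deposited q. Whether they changed separately, or through the corepressors, was not tested. Of the 13 double-positive markers Themis passed both ways and Arpp21 only by the deposited q (347 and 652 FPKM, adjusted p = 0.0506 on the authors' error with the trend removed). Cd4 (359 and 378 FPKM), Cd8a (692 and 655) and Cd3e (365 and 359) did not pass. In the recombinase and pre-TCR list, which shares Bcl6 and Spo11 with those above, 3 of 19 genes were higher and 2 lower. Rag1 was at 1199 and 2655 FPKM and did not pass either, with a wide SE (0.86 ± 0.65).

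Some called genes lay side by side. Among members in chromosome order, 36 runs of at least 3 neighbours were all higher by the deposited q, with 111 genes, and 30 runs were all lower, with 121 genes. Of the lower runs 6 held histone genes, the longest with 14 genes. With the trend removed every gene was still called in 12 higher and 2 lower runs. The higher runs included Gimap4, Gimap6 and Gimap7 (chr6:48684577-48724636), Ifi204, Mndal and Ifi203 (chr1:173747293-173942492), and 4933421E11Rik, Cd53 and Kcna3 (chr3:106684986-107038129), on mm10 as the authors' table gives the loci. Themis lay beside Ptprk, a receptor phosphatase gene, at 1.19 and 4.69 FPKM (1.72 ± 0.49). The lower runs included Lynx1, Ly6d and Ly6k (chr15:74747855-74799968). Ly6d, a lymphoid surface protein gene, was at 195 and 37.2 FPKM (-1.67 ± 0.59) and Ly6k at 13.9 and 2.25 (-1.91 ± 0.65). How many such runs an ordering without regard to position would give was not tested.

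Sex-linked genes were set apart since the genotypes differed in sex. Of 312 X-linked genes 35 (11.2%) were higher and 12 (3.85%) lower with the trend removed, beside 8.88% and 5.74% of 9966 autosomal genes. Kdm6a, an X-linked histone demethylase gene that escapes X inactivation, was at 11.9 FPKM in WT cells and 43.1 in Hdac3KO (1.62 ± 0.46, adjusted p = 0.00724 on the authors' error). The escaping genes Kdm5c (19.2 and 26.3 FPKM) and Eif2s3x (65.4 and 62.3 FPKM) did not pass, and Ddx3x (178 and 297 FPKM) passed only by the deposited q. The Y-linked Uty, Ddx3y and Eif2s3y were at 27.8, 57.3 and 41.5 FPKM in WT cells and at 0.0208, 0.189 and 0.282 in Hdac3KO, and did not pass. Since X-linked genes are a small part of the table, the counts above rest mostly on autosomes, where the effect of sex was not tested.

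The DP2 genotype comparison used other libraries of the same genotypes, and served to ask which DP1 changes recurred. Of 889 genes higher in DP1 and tested in DP2, 200 were also called higher there, 5 were called lower and 77.1% had the same sign, with the length trend removed in both. The background in DP2 was 4.43% of genes higher and 5.78% lower. Of 556 genes lower in DP1, 162 were also lower and 0 higher in DP2, and 88.8% had the same sign. The sexes differ in the same way in DP2, with Xist at 0.243 and 139 FPKM, so recurrence does not separate sex from Hdac3. The difference between the ratios was tested for each gene as well: 2.08% of 10142 genes passed as deposited and 1.03% of 9991 with both length trends removed. Among named genes 6 differed by both. Cd53 and Cd302 had length-adjusted log2 ratios of 3.64 and 4.21 in DP1 and -0.57 and -0.31 in DP2, which gives differences of 4.21 (adjusted p = 0.000909) and 4.52 (adjusted p = 0.0217), on the authors' errors. Cd84 rose in DP1 and fell in DP2, where it was at 182 and 99.2 FPKM (difference 2.06, adjusted p = 3.72e-05 on the authors' errors). The chemokine receptor gene Ccr4 was at 64.4 and 49.3 FPKM in DP2 (difference 1.67) and Esco1 at 52.9 and 41.6 (difference 1.76). Dnajc15 was the sole gene of the 6 that fell in DP1, and in DP2 it was at 227 and 334 FPKM (difference -1.52). Kcna3, next to Cd53, was at 41.2 and 49.6 FPKM in DP2, and its difference of 1.34 passed only with the length trends removed (adjusted p = 0.0286 on the authors' errors). Across the 4 groups, WT DP1 was the lowest for Cd53, Cd302, Esco1, Cd84 and Ccr4, with the caution that the tables were normalized separately.

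**Figure D5:**
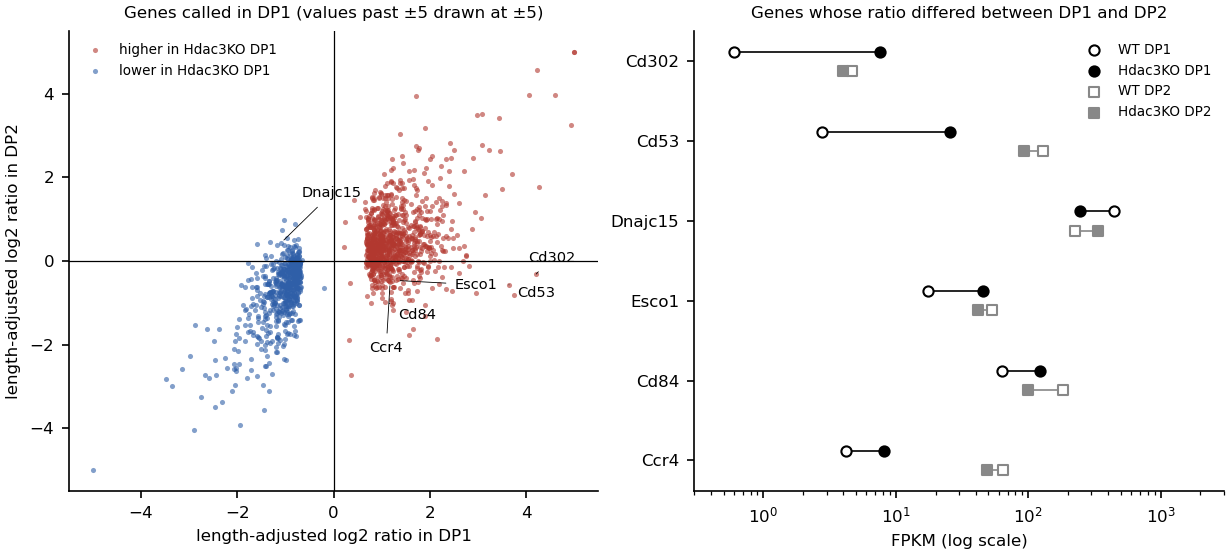
Left, length-adjusted log2 ratio in DP2 against that in DP1 for genes called higher (red) or lower (blue) in DP1 with the length trend removed, values past ±5 drawn at ±5. Right, FPKM (log axis) in the 4 groups for the 6 named genes whose ratio differed between DP1 and DP2; Cd53 is at 2.77 FPKM in WT DP1 and 25.5 in Hdac3KO DP1, but at 130 and 92.6 in DP2.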

How the data were processed

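Total RNA from sorted DP1 and DP2 thymocytes was sequenced in 8 libraries, 2 per group. Per the submitters' processing notes, Trimmomatic 0.32, TopHat2 2.0.11, Cuffdiff 2.1.1 and mm10 were used; their settings are not given in the sources used here. The authors deposited, per the file headers, FPKM per gene and group, a test statistic (a score), a p-value and a q-value; the log2 ratio column was damaged, so ratios were computed from the FPKM. Read depth and values per library are unknown, so no SD or counting interval can be given. Members had at least 1 FPKM in either genotype.

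Each ratio's SE was worked back from the authors' p, as the absolute ratio over the matching normal deviate, two-sided. It is an upper bound for the 598 called genes at the smallest p the authors' test can give, 5e-05, and imprecise where p is near 1 (9 length-adjusted calls have an SE under 0.2). The length trend was fitted by lowess (span 0.3) to genes at 10 FPKM or more in WT and Hdac3KO alike, against the longest GENCODE M21 transcript, which need not be the authors' annotation. The difference between genotype effects in DP1 and DP2 was tested in the same way. P-values were Benjamini-Hochberg adjusted over all genes tested at a threshold of 0.05. They rest on the authors' error, whose make-up is not given in the sources used here. Any spread between libraries in it may be technical. No error of the fitted length trend was added. Promoters came from RefSeq. The trend removal and its test were run on simulated data with known SEs and a straight trend on log length. That run did not cover SEs worked back from p. Python 3.11.15, pandas 2.3.3, numpy 2.4.6, scipy 1.17.1, statsmodels 0.14.6 and matplotlib 3.10.9 were used.

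Genes were named by rule: among single-gene entries with full names, called the same way both ways and at 5 FPKM or more, the 12 largest length-adjusted ratios in each direction and the 8 largest at 200 FPKM or more; up to 3 called members of each of 56 lists in each direction; Hdac3, sex genes and double-positive markers; and members of runs and of the on or off groups. The remaining Gimap genes and a few list members, among them Ptpn11 and Slc29a1, were named after their values were seen. Members and lists were chosen with earlier results of these data known.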

Additional observations from a re-analysis of the deposited data

Results flagged for a closer look

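For 6 named genes the effect of genotype differed between DP1 and DP2, both with the ratios as deposited and with both length trends removed, by a normal test of the difference with Benjamini-Hochberg adjustment over all genes. With the trends removed, and on the authors' errors, the log2 ratio in DP1 minus that in DP2 was 4.52 for Cd302 (adjusted p = 0.0217), 4.21 for Cd53 (0.000909), 2.06 for Cd84 (3.72e-05), 1.76 for Esco1 (0.00767), 1.67 for Ccr4 (0.00767) and -1.52 for Dnajc15 (0.00756). As deposited the differences were 3.90, 3.69, 1.84, 1.72, 1.35 and -1.40. Each genotype and population has 1 deposited value per gene, so no library can be left out.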

How the results depend on the processing

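No paired analysis was possible because the deposited columns hold 1 value per group and carry no replicate number, and for the same reason no library could be left out. Against 1120 higher and 1358 lower genes by the deposited q, a q of 0.01 gave 639 and 661, a log2 ratio of at least 1 gave 618 and 594, and a normal p from the deposited statistic 739 and 805. Centring on the median gene gave 1431 and 947, and log2(FPKM + 1) 766 and 943. Against 920 higher and 585 lower with the length trend removed, an adjusted p of 0.01 gave 443 and 226, and standard errors 1.5 times as large gave 2 and 0. The longest transcript with a RefSeq match, chosen after seeing the data, gave 914 and 578. Against 211 genes that differed between DP1 and DP2 as deposited, removal of both trends gave 103, and standard errors 1.5 times as large 0. Because the authors' p has a floor of 5e-05, enlarging the standard errors leaves almost no gene able to pass by construction, so the counts with larger standard errors say nothing about stability. Of 273 named results, 204 kept their call with the length trend removed and 69 lost it. The counts were 192 and 81 with a GC trend removed too, and 193 and 80 with RefSeq lengths, and none reversed. The largest changes were named only if called both ways, and list members were picked by length-adjusted ratio. These counts were thus partly fixed by the choice of genes and do not measure stability. Over all genes, 708 of 1120 higher and 463 of 1358 lower calls were kept with the length trend removed. The missing spread between libraries, the unknown depth and the difference in sex limit every count.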
